A study of Ceratopteris richardii with 15 samples.

Results

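A set of 166 genes of the fern Ceratopteris richardii had its high levels in the leaf tip and the shoot tip and was low in the other tissues sampled. The members were chosen by their mean level in each tissue in TPM, a unit of transcript abundance that corrects for gene length and sums to 1000000 in every library. A gene was taken when the lower of its leaf tip and shoot tip means was at least 20 TPM and at least 4 times the largest of its root tip, root and leaf means, and when leaf tip and shoot tip lay within 2-fold of each other. This rule was met by 166 of the 88641 genes deposited, which is 0.187%, and a limit of 300 on the set was not reached. After median-ratio scaling of the libraries 86 genes met it, all of them members. All 166 were among the 39490 genes tested, which they entered through their tip values, so this says nothing more about them.

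The libraries came from wild type RNWT1 sporophytes, the spore-producing generation of the fern, sampled 50 days after spore germination on 1/2 MS medium. The 5 groups of 3 libraries each were leaf tip, shoot tip, root tip, root without its tip and leaf without its tip, with the last pair called root and leaf below. No treatment or mutant was used, and the labels do not say whether the replicates of a tissue came from different plants, so p-values measure only the spread between these libraries, which may be technical. Tips were cut from whole seedlings, and each library is a mixture of dividing and older cells, in which fewer cells of a type and less RNA per cell cannot be told apart.

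Fern organs grow from their tips. The shoot tip holds an apical cell whose descendants build the stem and the leaf primordia, and each young leaf keeps a growing apex of its own inside the coiled frond. Roots also have an apical cell, which forms a root cap outward as well as the root body. In many land plants the shoot apex and the young leaf use partly overlapping sets of regulators, and in ferns class I KNOX genes, which encode transcription factors of the shoot meristem, are known to be active in the young leaf as well.

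The gene identifiers have the form the Trinity assembler gives to assembled contigs, with a prefix (LA, SHA, RT, RO or LE) that matches the tissue codes of the table's columns, and the table gives no gene names. None of them (0) was found among 36816 genes of the reference table for the C.richardii_v2 assembly. The genes are therefore reported by identifier, with no position, sequence or role, and markers of the labelled tissues could not be checked. As no gene is annotated, several identifiers may stand for 1 gene, and reads shared by close copies make single values uncertain.

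The pattern was one of the more common ways for a pair of tissues to stand apart from the other 3. When the same rule was applied to each of the 10 pairs of tissues, root tip with root gave 192 genes, leaf tip with shoot tip 166 and root with leaf 62. After median-ratio scaling these pairs gave 174, 86 and 99 genes, so that root with leaf came before leaf tip with shoot tip. On the deposited scale the other 7 pairs gave between 0 and 8 genes, with 4 for shoot tip with root tip and 0 for leaf tip with root tip. These counts were not tested, since the rule reads the same values. As a share of the genes that reached 20 TPM in both tissues of the pair and lay within 2-fold, they came to 3.73% of 5143 for root tip with root, 2% of 8285 for leaf tip with shoot tip and 1.48% of 4198 for root with leaf.

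**Figure D1:**
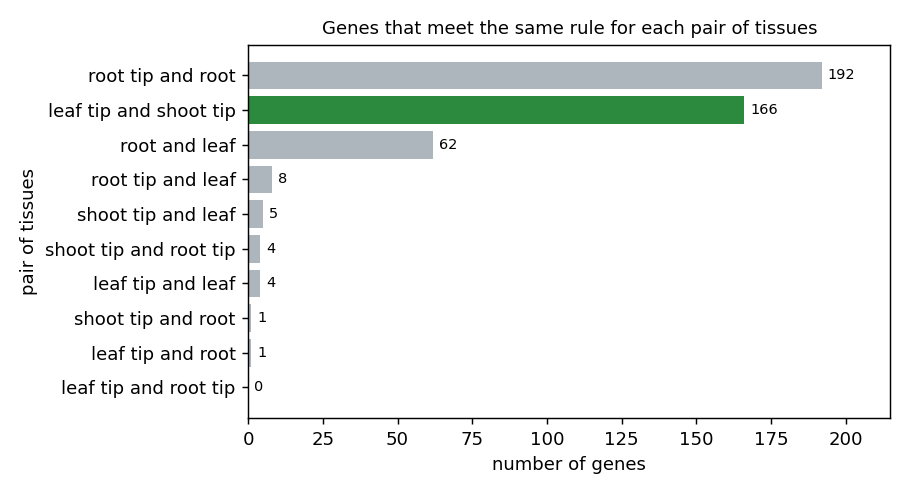
Number of genes that met the same rule for each of the 10 pairs of tissues (horizontal bars, from 0). Leaf tip with shoot tip (green) gave 166 genes, below root tip with root (192), while 7 pairs gave 8 genes or fewer.

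Root tip was the tissue that kept most genes of this level out of the set. Of the 8285 genes at 20 TPM or more in both tips and within 2-fold, 1476 (17.8%) were at least 4 times their root mean and 1225 (14.8%) at least 4 times their leaf mean, but 256 (3.09%) at least 4 times their root tip mean. Root tip alone kept out 774 genes that passed against both root and leaf, and in these the median root tip mean was 0.453 of the lower leaf tip or shoot tip mean. Leaf alone kept out 69 genes and root alone 5. When root tip was required to be as high as the other tips, within 2-fold, 123 genes met the rule for leaf tip, shoot tip and root tip against root and leaf.

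Most members were of moderate abundance, and a few were far more abundant. The median member had a mean of 48.7 TPM in leaf tip (quartiles 34.8 and 75.7) and 41.1 TPM in shoot tip (quartiles 30.5 and 72.6). In 27 members both tip means were at 100 TPM or more, and in 88 the lower one was under 40 TPM. As a share of all TPM the set came to 2.34% ± 0.008 for leaf tip and 2.2% ± 0.018 for shoot tip, against 0.156% ± 0.00086 in root tip, 0.129% ± 0.0013 in leaf and 0.0161% ± 0.0021 in root (SD, n = 3 each). The 3 most abundant members made up 0.914% ± 0.0035 of the leaf tip total and 0.821% ± 0.0093 of that of shoot tip (SD over 3 libraries).

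**Figure D2:**
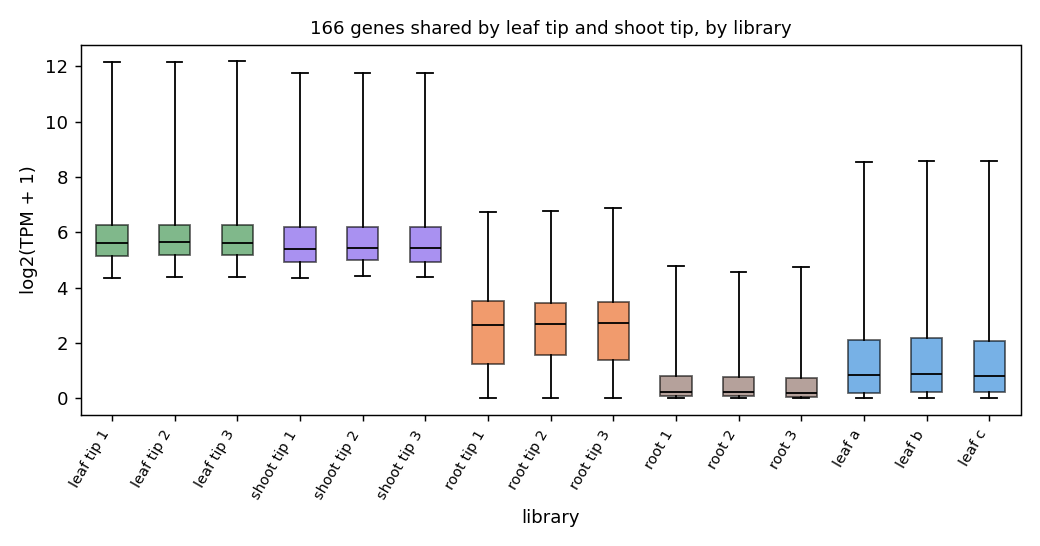
Values of the 166 members in each of the 15 libraries as log2(TPM + 1). Boxes run from the lower to the upper quartile with the median as a line, and whiskers reach the lowest and highest member. Leaf tip and shoot tip are high by the choice of the members, and among the other tissues root tip has the highest median and root the lowest, with means of 5.58 TPM and 0.155 TPM for the median member.

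Replicates of the tips were close for these genes. The coefficient of variation of the median member was 1.84% over the leaf tip libraries and 2.57% over the shoot tip libraries, and the highest were 22% and 15.2%. In root tip, leaf and root, where values were low, the median member varied by 7.43%, 16.2% and 41.4%. In 134 members the lowest of the 6 libraries of leaf tip and shoot tip was at least 4 times the highest of the 9 other libraries. For the remaining 32 this ratio of single libraries fell as far as 3.06, and the library that set it was from root tip in 14, 8 and 7 cases for replicates 1, 2 and 3 and from leaf in the others.

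Root replicate 3 was often the lowest root library among genes at 1 TPM or more in root. The shares below were not computed for the other root replicates. Of the 36 members at 1 TPM or more in root, root replicate 3 was the lowest root library in 22 (61.1%), against 15709 of 30015 tested genes (52.3%) at that level. It lay more than 2-fold below the mean of the other replicates in 8 of the 36 (22.2%) and more than 2-fold above it in 0, where 6.64% and 3.87% of the 30015 tested genes did so. Leaving it out of the rule gave 168 genes, which included all 166. Its part in the root values given below was not tested beyond the values without it that follow where they differ.

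The rule was also applied with part of the libraries held out. One library of each tissue was held out, the rule was applied to the means of the rest, and the ratio of the lower tip to the highest other tissue was then taken within the held-out libraries. The 3 rounds chose 168, 158 and 162 genes, of which 161, 155 and 153 were members. Of the genes chosen in each round, 150, 148 and 147 had a ratio of at least 4 in the held-out libraries, and 167, 158 and 159 had at least 3. Among the members chosen, 147 in each round had at least 4, which is a description, since the held-out libraries helped to choose the members. The lowest held-out ratio was 2.92, 3.69 and 0.381. The last was in RT_TRINITY_DN10216_c0_g1, no member, which held 96.37 TPM in root replicate 3 against a mean of 4.2 in the other root libraries, while leaf tip replicate 3 was at 37.45 TPM and shoot tip replicate 3 at 36.68 TPM. This gene is named after its values were seen. The numbers of the leaf columns match no single leaf sample, so leaf replicates a, b and c were held out in that order.

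Among the members the ratio of the lower tip to the largest other mean, with 0.1 TPM added to both, ran from 3.96 to 313 with a median of 5.66. It was at least 10 in 48 members, at least 50 in 15 and at least 100 in 6, while 64 members had a ratio under 5. The 48 members with a ratio of at least 10 and the other 118 had medians of 47.6 and 48.9 TPM in leaf tip, 46.5 and 40.04 TPM in shoot tip and 0.85 and 6.82 TPM in root tip. In root the medians were 0.13 and 0.158 TPM and in leaf 0.857 and 0.778 TPM. The ratio is the measure that chose the members, so these values are a description.

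The largest ratio, 313, belonged to SHA_TRINITY_DN17191_c0_g1. The shoot tip libraries held 80.19, 80.81 and 84.87 TPM and the leaf tip libraries 54.37, 60.68 and 56.65 TPM. It had 0.06, 0.19 and 0 TPM in root tip and 0.08, 0 and 0 in leaf, and was listed at 0 in the 3 root libraries. Every shoot tip library was above every leaf tip library, and no other library reached 1 TPM. A value listed at 0 may reflect a failed estimate and not only a low level. The next, with a ratio of 192, was LA_TRINITY_DN51501_c1_g1, with leaf tip at 1002.22, 1010.04 and 997.71 TPM and shoot tip at 1051.06, 1064.16 and 1062.22 TPM. Leaf held 4.32, 5.46 and 5.58 TPM, root 1.48, 2.1 and 0.55 TPM and root tip 0.14, 0.17 and 0.22 TPM, so that leaf was the highest of the low tissues and root tip the lowest, with no overlap between the 3.

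The most abundant member, LE_TRINITY_DN5604_c0_g1, held 4633.38, 4629.77 and 4641.63 TPM in leaf tip and 3451.07, 3501.12 and 3506.34 in shoot tip. It also had 70.7, 67.35 and 66.57 TPM in root tip, against 4.04, 3.7 and 0.76 in root and 1.22, 1.88 and 1.13 in leaf. All leaf tip libraries were above all shoot tip libraries, and root replicate 3 fell below the leaf values. SHA_TRINITY_DN71550_c1_g1 came second, with leaf tip at 2191.08, 2236.28 and 2213.65 TPM and shoot tip at 2777.3, 2826.76 and 2836.85 TPM. Unlike the former gene it was low in root tip, at 0.52, 0.65 and 0.33 TPM, and present in leaf, at 371.61, 381.18 and 383.25 TPM. This was the highest leaf level of any member, and its root libraries held 3.12, 2.51 and 0.64 TPM.

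**Figure D3:**
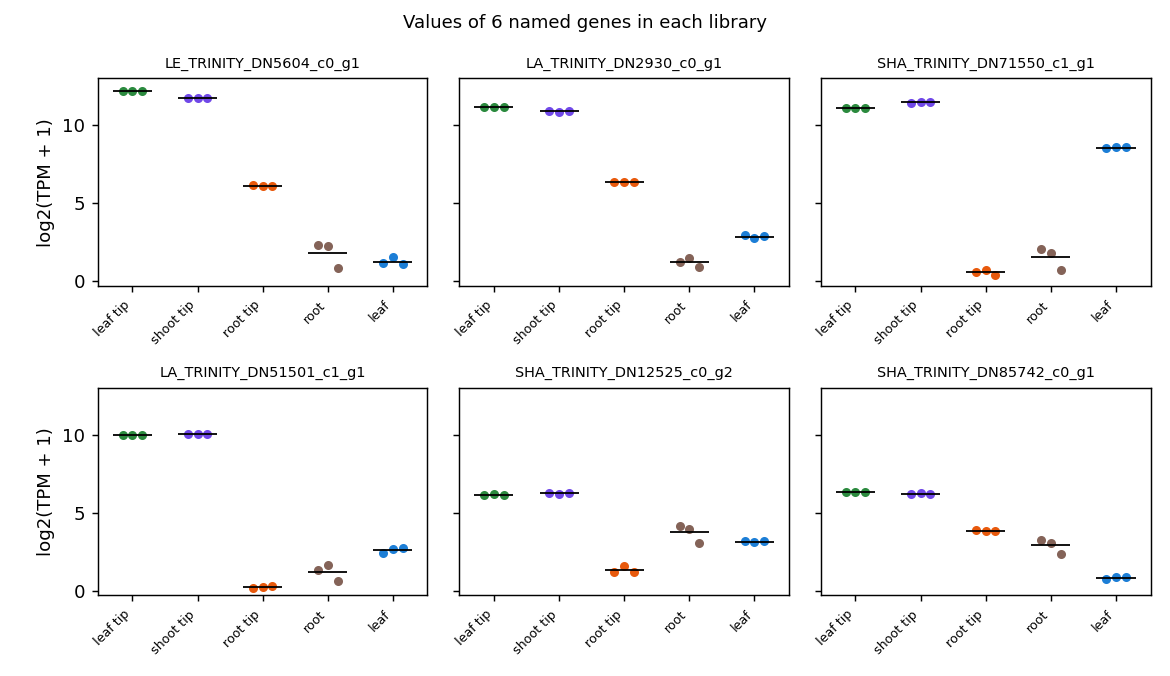
Values of 6 members in each library as log2(TPM + 1), with points for libraries and a line for the tissue mean on that scale. Leaf tip and shoot tip lie within 2-fold in each gene by the choice of the members. The genes differ in which of root tip, root and leaf is highest: root tip for LE_TRINITY_DN5604_c0_g1, leaf for SHA_TRINITY_DN71550_c1_g1 and root for SHA_TRINITY_DN12525_c0_g2.

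At the edges of the rule the members passed into genes of the same kind. The member with the lowest offset ratio was LA_TRINITY_DN2724_c0_g1, with leaf tip at 25.19, 24.48 and 24.57 TPM, shoot tip at 20.45, 21.84 and 19.91 TPM and root tip at 5.3, 4.13 and 6.07 TPM. Just outside lay LA_TRINITY_DN15813_c0_g1, with means of 95.2, 78.3 and 19.6 TPM in leaf tip, shoot tip and root tip and a ratio of 3.992 without the offset, where the nearest member had 4.003. For the level, the values on either side of 20 TPM were 20.11 and 19.86, and for the similarity of the tips the values on either side of 2-fold were 1.995 and 2.026.

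The rule treats leaf tip and shoot tip alike, so it does not fix which is higher. The members leaned to leaf tip by a small amount. The leaf tip mean was the higher in 116 of 166 members (69.9%), against 4536 of the 8285 genes at this level (54.7%), and the median log2 ratio of the means was 0.19 for the members and 0.03 for those genes. Every leaf tip library was above every shoot tip library in 104 members (62.7%), where this held for 26.2% of all tested genes and 42.9% of the 8285. The reverse held in 44 members (26.5%), where it held for 31.9% and 34.4%, and the libraries overlapped in 18.

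Differences were tested with limma on log2(TPM + 1) over all 39490 genes, in 1 fit of all 15 libraries, and for this comparison a gene was called at a Benjamini-Hochberg adjusted p under 0.05 and at least 1.5-fold. The rule allows at most 2-fold, so few large differences could occur. Higher in leaf tip were 17 of 166 members, which is 10.2%, where 6.95% of all tested genes and 6.11% of the genes at 20 TPM or more in both tips and within 2-fold were called. Higher in shoot tip were 11 members, which is 6.63%, where 12.4% of all tested genes and 3.69% of the genes at that level were called. The 28 calls had libraries that did not overlap, a description only, since this was not counted for the other called genes. No call was made in 138 members. With the adjusted p alone 74 members (44.6%) were higher in leaf tip, where 19.4% of all tested genes and 31.8% of the genes at that level were. In shoot tip 30 members (18.1%) were higher by this call, where the shares were 25.3% and 26.3%. Median-ratio scaling and quantile normalization moved the median of all genes in this comparison by 0 and 0.04.

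The member with the largest difference toward leaf tip was SHA_TRINITY_DN4238_c0_g2, at 95.75, 99.01 and 95.66 TPM in leaf tip against 50.19, 46.52 and 49.77 in shoot tip (limma log2 fold change 0.97, SE 0.07, adjusted p = 6.6e-08). Root tip held 10.38, 11.11 and 9.5 TPM of it. Toward shoot tip it was LA_TRINITY_DN3128_c0_g1, which had 47.67, 51.36 and 48.77 TPM in shoot tip against 22.66, 20.56 and 30.85 in leaf tip (limma log2 fold change -0.99, SE 0.14, adjusted p = 6.8e-05). It was listed at 0 in all root tip libraries and held 1.29, 0.86 and 1.72 TPM in leaf. Neither of these genes had overlapping libraries, though leaf tip replicate 3 of the latter stood above its fellows. For the most abundant member, LE_TRINITY_DN5604_c0_g1, the tip difference was not called (log2 fold change 0.41, SE 0.28, adjusted p = 0.27 by limma). The fit shares 1 spread across tissues, and in a fit of the 6 tip libraries alone the adjusted p of this gene was 1.3e-08 with SE 0.0092, still under the 1.5-fold limit.

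**Figure D4:**
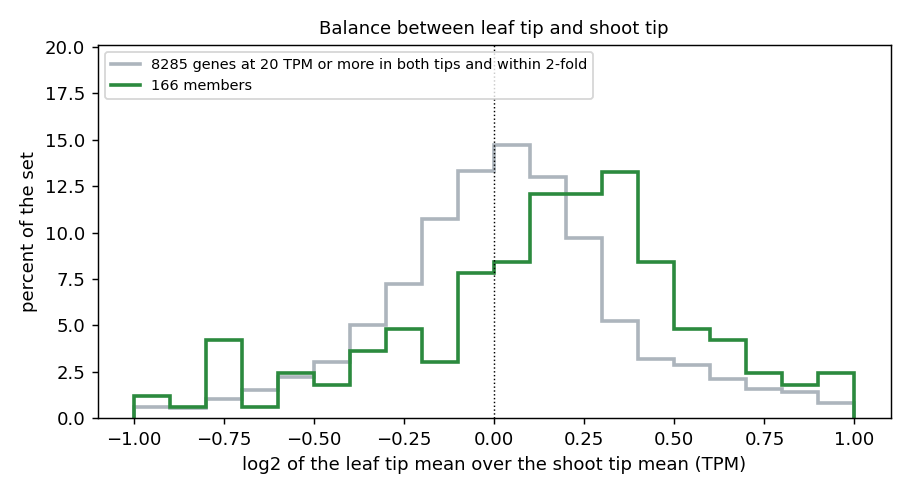
Distribution of the log2 ratio of the leaf tip mean to the shoot tip mean, as the percent of each set per bin, for the 166 members (green) and the 8285 genes at 20 TPM or more in both tips and within 2-fold (grey). The members lie further to the right, with a median of 0.19 against 0.03, and both sets end at 2-fold because they were chosen so.

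The tissues outside the shoot and leaf tips were not alike in what they kept of these genes. The largest of the 3 low means was in root tip for 127 members, in leaf for 36 and in root for 3. The rule caps the largest of them but does not say which it is. Of the 64 members with a ratio under 5, it was root tip in 57 and leaf in 7. Of the 48 with a ratio of at least 10, it was root tip in 26, leaf in 20 and root in 2. The median member had a mean of 5.58 TPM in root tip (quartiles 1.59 and 10.2), 0.78 TPM in leaf (quartiles 0.16 and 3.27) and 0.155 TPM in root (quartiles 0.05 and 0.738). Under 1 TPM were 35 members in root tip, 87 in leaf and 130 in root, and 17 members were under 1 TPM in all 3. At 10 TPM or more there were 42 members in root tip, 14 in leaf and 3 in root.

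Root tip exceeded root in most members. For this and the following comparisons a call needed an adjusted p under 0.05 by limma and at least 2-fold on the log2(TPM + 1) scale. On that scale a gene with a mean under 1 TPM in a tissue could not be called higher there. Higher in root tip than in root were 115 of 166 members (69.3%), where 18.8% of all tested genes were called, and higher in root were 3 members (1.81%), where 13.1% were. Among the 8285 genes at 20 TPM or more in both tips and within 2-fold the shares were 31.4% and 3.66%. The median log2 fold change was 2.18 in the members, 0.56 in the genes at that level and 0.08 in all tested genes. The 115 members had libraries that did not overlap, a description only, since this was not counted for the other called genes. Their medians were 7.31 TPM in root tip and 0.14 TPM in root.

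The largest difference of this kind was in LA_TRINITY_DN2930_c0_g1, with root tip at 82.77, 81.75 and 81.62 TPM, root at 1.37, 1.82 and 0.84 TPM and leaf at 6.73, 5.67 and 6.3 TPM (root tip against root, log2 fold change 5.17, SE 0.11, adjusted p = 2.6e-14 by limma). This gene was also abundant in the set, with leaf tip at 2276.75, 2284.2 and 2313.69 TPM and shoot tip at 1888.05, 1879.6 and 1959.73 TPM. Root tip was the highest of its low tissues and root the lowest, without overlap. LA_TRINITY_DN27265_c0_g2 had the highest root tip level of any member, at 105.18, 109.23 and 117.06 TPM, where leaf tip held 519.25, 520.54 and 513.45, shoot tip 436.96, 447.13 and 447.03, root 26.45, 22.93 and 13.82 and leaf 9.51, 8.94 and 8.73. It passed the rule narrowly, with a ratio of 4.01.

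The 3 members called higher in root than in root tip had root means of 2.44 to 12.9 TPM. SHA_TRINITY_DN12525_c0_g2 held 16.89, 14.68 and 7.25 TPM in root, 1.24, 2.04 and 1.26 in root tip and 8.06, 7.48 and 7.92 in leaf (root tip against root, log2 fold change -2.41, SE 0.21, adjusted p = 1.4e-07 by limma). Its tip levels were 70.2, 73.31 and 68.02 TPM in leaf tip and 75.05, 73.45 and 75.38 in shoot tip. Every shoot tip library was above every leaf tip library, though 73.31 and 73.45 TPM lay close. The other two are named because they are few, after their values were seen. RO_TRINITY_DN5560_c0_g3 held 4.09, 4.49 and 1.99 TPM in root against 0.53, 0.76 and 0.8 in root tip. LA_TRINITY_DN8156_c0_g1 held 3.49, 3.68 and 0.14 TPM in root against 0.16, 0.1 and 0.1 in root tip, so that its root replicate 3 fell within the root tip values. Root replicate 3 was the lowest root library in all 3 genes, and without it 5 members were called higher in root, which included these 3. Pseudocounts of 5 and 0.1 gave 1 and 8 members.

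Calls between root tip and leaf went more often toward root tip. Higher in root tip than in leaf were 90 members (54.2%), where 23.3% of all tested genes were called, and higher in leaf were 20 (12%), where 10.4% were, which is near the background. Among the 8285 genes at 20 TPM or more in both tips and within 2-fold the shares were 35.1% and 6.99%. The 90 members had medians of 7.43 TPM in root tip and 0.243 TPM in leaf, and the 20 had medians of 0.185 TPM in root tip and 5.82 TPM in leaf. With a pseudocount of 5 the counts were 58 and 10, for which no share of all tested genes was computed. All 110 had libraries that did not overlap, again a description only, as this was not counted for the other called genes. The remaining 56 members had no call. The median log2 fold change was 1.28 in the members and 0.3 in all tested genes, and median-ratio scaling moved the latter by -0.28.

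RT_TRINITY_DN65183_c0_g1 showed the largest difference toward root tip, with 34.05, 33.52 and 33.28 TPM there and 0.16, 0.1 and 0.21 in leaf (limma log2 fold change 4.9, SE 0.049, adjusted p = 2.6e-17). Root was as low, at 0.19, 0.07 and 0.07 TPM, while leaf tip held 176.63, 172.32 and 172.75 TPM and shoot tip 141.7, 141.1 and 139.93. In the opposite direction SHA_TRINITY_DN71550_c1_g1, whose values are given above, differed most (log2 fold change -7.99, SE 0.23, adjusted p = 7.5e-13 by limma). The calls between the leaf tip and shoot tip fell in each of these groups. Of the 90 members higher in root tip, 8 were called higher in leaf tip and 1 in shoot tip, of the 20 higher in leaf 3 and 2, and of the 56 with no call 6 and 8. These counts were not set beside other genes in the same groups, so no link between the comparisons can be read from them.

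**Figure D5:**
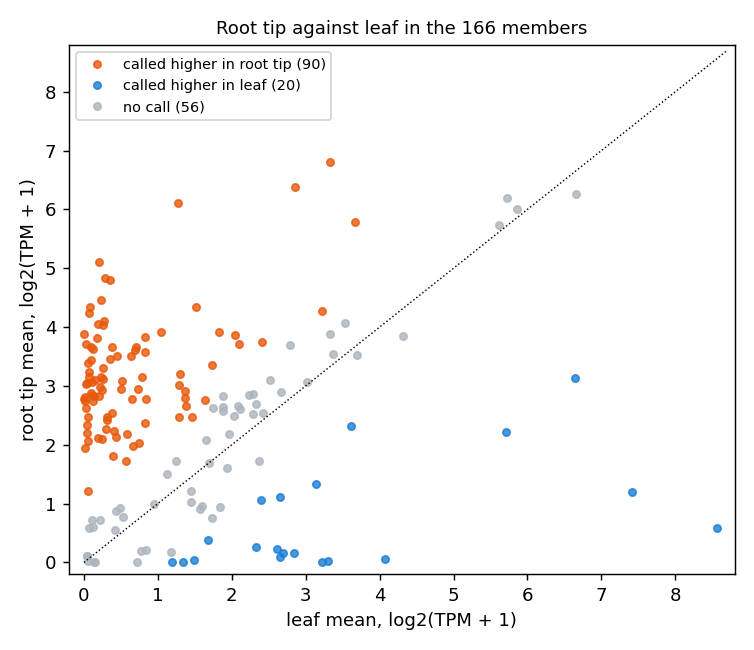
Mean of each of the 166 members in leaf (horizontal) and root tip (vertical) as log2(TPM + 1), coloured by the call of limma between the tissues, with a dotted line where they are equal. Of the members 90 were called higher in root tip (orange), with a median of 0.243 TPM in leaf, and 20 higher in leaf (blue), with a median of 0.185 TPM in root tip.

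Leaf more often exceeded root than the reverse. Higher in leaf than in root were 52 members (31.3%), where 12.6% of all tested genes were called, and higher in root were 4 (2.41%), where 18.1% were. Pseudocounts of 5 and 0.1 gave 22 and 82 members higher in leaf, for which no share of all tested genes was computed. Among the 8285 genes at 20 TPM or more in both tips and within 2-fold the shares were 15.7% and 9.29%. The median log2 fold change of root against leaf was -0.33 in the members, 0.18 in the genes at that level and 0.22 in all tested genes, where median-ratio scaling and quantile normalization moved the last by -0.20 and -0.29. In 110 members there was no call. A call toward root was not possible for the 130 members under 1 TPM in root. The same held toward leaf for the 87 under 1 TPM there. SHA_TRINITY_DN71550_c1_g1 again led toward leaf (log2 fold change -7.05, SE 0.23, adjusted p = 3.4e-12 by limma).

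The 4 members higher in root than in leaf all had a root tip mean above their root mean. SHA_TRINITY_DN85742_c0_g1 differed most, with 8.42, 7.46 and 4.17 TPM in root against 0.67, 0.85 and 0.82 in leaf (limma log2 fold change 2.07, SE 0.15, adjusted p = 2.5e-08) and 13.47, 13.27 and 13.13 in root tip. LA_TRINITY_DN27265_c0_g2, described above, was another (log2 fold change 1.09, adjusted p = 2.2e-05 by limma). The others, named after their values were seen, were SHA_TRINITY_DN3100_c0_g1, at 7.06, 5.97 and 3.67 TPM in root, 6.74, 6.8 and 7.68 in root tip and 1.34, 1.45 and 1.56 in leaf, and LA_TRINITY_DN2698_c0_g1, at 1.16, 1.46 and 1.81 TPM in root, 3.77, 4.03 and 3.7 in root tip and 0.19, 0.18 and 0.31 in leaf. In this direction pseudocounts of 5 and 0.1 gave counts of 0 and 9, and either scaling gave 2. The highest root level of any member was in RO_TRINITY_DN7643_c0_g1, with 19.91, 19.74 and 25.82 TPM in root, but it was higher still in root tip, at 74.21, 75.27 and 78.82, and in leaf, at 96.16, 99.63 and 103.44.

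Over these 3 comparisons 86 members (51.8%) were higher in root tip than in both root and leaf, where 11.9% of all tested genes and 20.9% of the 8285 genes were. Of the 86, 10 were also higher in leaf than in root, which is 6.02% of the members, where the shares were 0.975% and 2.52%. Higher in leaf than in both root tip and root were 18 members (10.8%), where 6.87% and 5.61% were. In 23 members (13.9%) root tip and leaf were both higher than root with no call between them, where the shares were 3.15% and 5.52%. No member was called higher in root than in both others, a count of 0, where 9.11% of all tested genes and 2.17% of the 8285 were. Such a call needed a root mean of at least 1 TPM, and 130 members were below it, so the 0 was largely set by their level. In 29 members (17.5%) there was no call in any of the 3 comparisons, where 47.8% and 42.3% had none. The 17 members under 1 TPM in root tip, root and leaf could not be called here, so no call does not mean equal levels.

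The members carried mostly identifiers of the tips in which they were abundant. The LA prefix was on 80 members (48.2%) and the SHA prefix on 64 (38.6%), against 29.1% and 23% of the 8285 genes at 20 TPM or more in both tips and within 2-fold. The prefixes RT, LE and RO were on 11, 9 and 2 members, which is 6.63%, 5.42% and 1.2% against 19.1%, 12.8% and 15.9%. Among all tested genes the prefixes LA, SHA, RT, LE and RO made up 24.4%, 21.9%, 17.9%, 13.8% and 22%. The members were chosen as high in both tips, and how far this choice sets their prefixes was not tested. No members shared an assembly component, a cluster of related contigs that Trinity marks by the start of the identifier, for a count of 0. In 22 members the component held other identifiers, 26 in all. Of these 26, 14 were higher in both tips than in each other tissue, and in 7 the lower tip mean was at least 4 times the largest other mean. At 1 TPM or more in both tips were 20 of the 26, and among those 20 the counts were 11 and 5.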

How the data were processed

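Total RNA was extracted with TRIzol and sequenced with standard Illumina library methods, per the labels' protocols. RSEM 1.3.2, Bowtie2 2.3.4.3 and Trim Galore 0.5.0 were used, per the submitters' processing notes, which give no settings. The authors deposited TPM values with 2 decimals that sum to 1000000 per library, so depth is unknown and counting error could not be given. The TPM scale fixes the total, so a rise of some genes lowers others. Columns were joined to samples by description; the leaf columns match the leaf group only and are called a, b and c.

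Genes that reached 1 TPM in at least 3 libraries entered limma 3.58.1 in R 4.3.3 on log2(TPM + 1), with an intensity trend, 1 mean per tissue, 10 residual degrees of freedom and Benjamini-Hochberg adjustment over 39490 genes. The pseudocount of 1 understates the change of low genes. The fit was tested on simulated data. Errors after ± are standard deviations.

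The members and the comparisons were chosen with earlier results of these data known. Named genes are the 2 largest ratios, the 2 most abundant, those at the edge of the rule, the called member with the largest difference in each direction, and the highest level in root tip, root and leaf. Alternatives were median-ratio and quantile scaling, pseudocounts of 0.1 and 5, leaving out the filter or raising it to a mean of 5 TPM, no intensity trend, a replicate block, other limits of the rule and leaving out each library. Holding out libraries, the pairs of tissues under median-ratio scaling, leaving out root replicate 3 where root was not compared, and the fit of tip libraries with the adjusted p alone were added after seeing the data. Figures used matplotlib 3.10.9 in Python 3.11.15.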

Additional observations from a re-analysis of the deposited data

How the results depend on the processing

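The size of the set depended on the limits of the rule and on scaling. Median-ratio scaling left 86 genes, all of them members. It divided the tip libraries by factors of 0.3 to 0.32 on the log2 scale, root tip by 0.04 to 0.05 and leaf by -0.45 to -0.39, and of the 80 members lost 50 fell under 4 times root tip, 16 under 4 times root or leaf and 24 under the level of 20, some by more than 1 of these. Quantile normalization gave 163 genes, 148 of them members. A ratio of 3 gave 355 genes and one of 6 gave 76, and a level of 40 TPM gave 78. Leaving out each library gave 159 to 168 genes.

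With the adjusted p alone, members higher in leaf tip rose from 17 to 74 and in shoot tip from 11 to 30. In a fit of the tip libraries only they rose to 102 and 41, which is 61.4% and 24.7%. In that fit 26% and 29.5% of the genes were called. Among the 8285 genes at 20 TPM or more in both tips and within 2-fold the shares were 40.7% and 32.1%. The adjusted p alone, in the fit of all libraries, gave 9 members higher in root than root tip and 34 higher in leaf than root tip. It gave 15 higher in root than leaf and 97 higher in leaf than root. A pseudocount of 5 left 1 member higher in root than root tip, 58 higher in root tip than leaf, 10 higher in leaf than root tip, 0 higher in root than leaf and 22 higher in leaf than root. A pseudocount of 0.1 gave 8 higher in root than root tip, 9 higher in root than leaf and 82 higher in leaf than root. Both scalings gave 2 higher in root than leaf. Leaving out each library gave 3 to 5 members higher in root than root tip. Leaving out root replicate 3 gave 17 and 11 members between the tips and 90 and 20 between root tip and leaf. The cause of these differences was not tested. Shares of other genes were computed only for the adjusted p alone between the tips, so the other counts here have no background. Over all settings and counts 124 values stayed within 1.5 times the main value and 23 moved further.

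Same-numbered libraries did not deviate together: the 18 correlations of their deviations from the tissue means ran from -0.015 to 0.024. The replicate block, fitted without leaf, gave 17 and 11 members between the tips and 115 and 3 between root tip and root, as without it. No comparison with leaf could be blocked. Depth is unknown, so levels near 0 have no detection limit.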
